A study of Mus musculus with 3 samples.

Results

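Voltage-gated and potassium ion channel genes were described by where peaks of the nucleoporin Seh1 lay in and around them in cultured mouse neural stem cells. They were chosen by symbol: every gene that the authors' annotation named beside a Seh1 or an IgG peak and that begins with Kcn, Cacna, Cacnb or Cacng, or with Scn or Hcn followed by a digit. This took in 85 of the 9838 genes named in either list, of which 82 encode proteins and 3 are non-coding RNAs (Kcnmb4os2, Kcnq1ot1 and Kcnd3os). The Seh1 list named 80 channel genes of 8548 genes, and the IgG list named 26 of 3093. Both lists named 21 of them, the Seh1 list alone 59 and the IgG list alone 5. Since a gene without a peak appears in neither list, the same symbol rule was also applied to the RefSeq gene table, which holds 138 protein-coding channel genes, 56 of them named in neither list.

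Binding was measured by ChIP-seq, in which DNA bound to a protein is pulled down with an antibody and sequenced, and a peak is a stretch with more reads than a background. The groups were a chromatin immunoprecipitation for Seh1 and, as its background control, a pull-down with IgG, which recognises no particular protein, with 1 library each. An input library was also made and was not analysed here as a group of its own. All came from wild-type cells cultured from newborn (P0) mouse cortex and kept in growth medium with EGF and bFGF, the growth factors that keep such cells dividing. Per the labels they are primary neural stem cells in proliferation, which a peak list cannot check against marker genes because it does not measure expression. The number of animals or cultures is not stated in the labels.

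Voltage-gated channels open a pore in the cell membrane when the membrane potential changes. Sodium channels drive the rising phase of the action potential, calcium channels couple it to secretion and signalling, and potassium channels end it. The pore is formed by large alpha subunits, and smaller auxiliary subunits set where and how readily it opens. Many of these genes are long, have large introns, and are known for their use in neurons rather than in dividing progenitors. Seh1 is a scaffold subunit of the nuclear pore, and nucleoporins have been found on chromatin both at the pore and away from it.

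The Seh1 list held 16113 peaks and the IgG list 5314. Peaks carry no height or score, so each is described by its position, its width and its distance to the nearest transcription start site (TSS), and a gene is said to be given a peak when its TSS was the nearest one in the authors' annotation. Without replicate libraries no test compares Seh1 with IgG, and no p-value is given. Intervals are 95% exact binomial for shares and exact Poisson for densities, and they cover counting error only. Where a count was 0, the limit given is that of 3 counts of the total, with the exact binomial upper bound beside it. The depth of the libraries is unknown, so the lengths of the lists cannot be compared as amounts of binding.

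Of the 174 Seh1 peaks and 44 IgG peaks given to channel genes, a single one was called at a promoter. It was 0.575% of these Seh1 peaks (0.0145 to 3.16), against 0.881% of all Seh1 peaks. No IgG peak of the 44 was, which allows up to 6.82% (exact upper bound 8.04%), against 0.452% of all IgG peaks. The promoter peak was a Seh1 peak of 243 bp at mm10 chr5:49285551-49285793, whose centre lay 13 bp upstream of a TSS of Kcnip4. This width is the minimum in the Seh1 list, shared by 27.2% of all its peaks. Kcnip4 encodes a Kv channel-interacting protein, a calcium-binding auxiliary subunit of Kv4 channels. It has several start sites over 1136 kb, and the transcript with this one was NM_001199244. Within 1 kb of a TSS lay 1.92% of all Seh1 peaks and 0.717% of all IgG peaks. The promoter of Kcnip4 is shown because it is the only start site among the channel genes that had a peak centre of either list within 1 kb. The 250 bases before that TSS are given from RefSeq (GRCm38.p6, chr5:49285660-49285909, minus strand, 5′ to 3′), with the 134 bases inside the Seh1 peak in capitals.
Kcnip4 promoter: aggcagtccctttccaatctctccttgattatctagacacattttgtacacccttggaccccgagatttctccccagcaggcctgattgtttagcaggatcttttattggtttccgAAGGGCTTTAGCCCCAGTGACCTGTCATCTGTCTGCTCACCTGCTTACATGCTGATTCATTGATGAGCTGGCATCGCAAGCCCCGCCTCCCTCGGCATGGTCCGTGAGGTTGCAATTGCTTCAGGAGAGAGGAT

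These 250 bases had a GC content of 51.2% and 6 CpG dinucleotides. The median was 58.2% GC and 8 CpG over 140 windows of the same length before starts of 104 channel genes, against 52.4% and 6 over 32851 windows of all genes. CANNTG, the letters of an E-box, which read the same on both strands, occurred 3 times, each time among the bases inside the peak, and 66.2% of all windows held it. CCAAT occurred once on each strand outside the peak (33.8% of all windows held it on either strand). TATAAA (12.4% of windows) and GGGCGG (32.7%) were searched on both strands and were not among these letters. The nearest IgG peak, also given to Kcnip4, was centred 11.2 kb upstream of the same start.

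Most channel genes were given a Seh1 peak. Of the 138 protein-coding channel genes, 78 were given at least 1 Seh1 peak (56.5%, 95% interval 47.8 to 64.9), against 31.9% of all 21779 protein-coding genes. The IgG list gave a peak to 24 of the 138 (17.4%, 11.5 to 24.8), against 11.3% of all protein-coding genes. Before gene length is taken into account, both lists thus named channel genes at more than the background share. The 24 genes of the IgG list include 4 that were given no Seh1 peak, namely Cacna2d1, Kcna3, Kcnh7 and Scn1a. Counted by peaks, channel genes took 1.08% of the Seh1 list (0.926 to 1.25) and 0.828% of the IgG list (0.602 to 1.11). The protein-coding channel genes are 138 of 21779 genes by number and 17.3 of 1031 Mb by span, so these shares have no single background value. The stricter count of genes with a peak centre inside their own span gave 53 channel genes for Seh1 (38.4%, 30.3 to 47.1), against 19.5% of all protein-coding genes, and 18 for IgG (13.0%, 7.92 to 19.8), against 6.26%. Within 10 kb of a TSS the Seh1 list gave a peak to 20 channel genes (14.5%, 9.08 to 21.5), against 9.68% of all protein-coding genes, and the IgG list to 3 (2.17%, 0.451 to 6.22), against 2.36%.

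Channel genes are long and stand far apart, and both properties moved with the counts. Their median length was 42.6 kb, against 17.2 kb over all protein-coding genes, and 44 of them (31.9%) reached 100 kb, against 11.1%. The summed gap to both neighbouring genes had a median of 72.9 kb for channel genes and 38.8 kb for all protein-coding genes. Within length classes the gap was not always wider. The medians were 32.7 and 31.0 kb for genes below 20 kb, 45.8 and 53.8 kb between 50 and 100 kb, and 93.1 kb for both between 100 and 200 kb. They were 54.1 and 36.9 kb between 20 and 50 kb, and 368 and 219 kb at 200 kb and over. Channel genes that were given a Seh1 peak had a median length of 79.2 kb and a median gap of 104 kb, whereas those given none had medians of 21.1 kb and 27.5 kb. Across the 138 genes the rank correlation of length with the number of peaks inside the gene was 0.614 for Seh1 and 0.492 for IgG, a description across genes, which are not replicates.

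**Figure D1:**
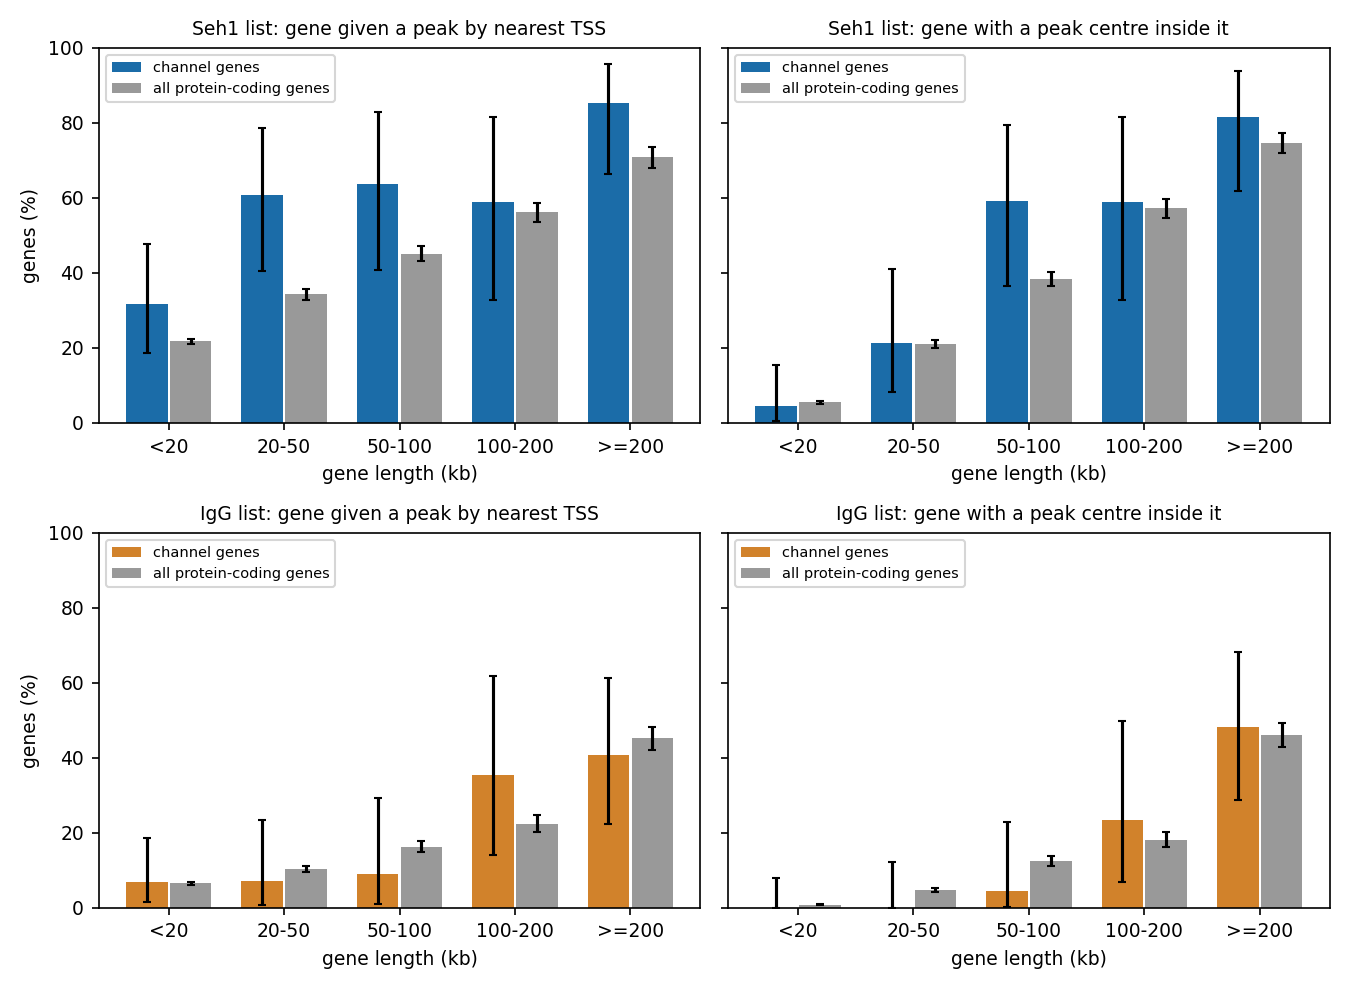
Share of genes (%) with a Seh1 peak (top) or an IgG peak (bottom), by gene length in kb, with a gene counted when the authors gave it a peak (left) or when a peak centre lay inside it (right). Coloured bars are channel genes, grey bars all protein-coding genes, and error bars 95% exact binomial intervals. The grey bars rise with length in every panel, the coloured Seh1 bars do not rise between 50 to 100 and 100 to 200 kb, and 23 of the 27 channel genes of 200 kb and over were given a Seh1 peak.

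Within classes of similar length, which the plot of shares by gene length shows, the Seh1 shares of channel genes and of all genes were closer in 4 of the 5 classes than over all lengths. Among genes of 200 kb and over, 23 of 27 channel genes were given a Seh1 peak (85.2%, 66.3 to 95.8), against 70.8% of all protein-coding genes, and 11 of 27 an IgG peak (40.7%, 22.4 to 61.2), against 45.2%. Between 100 and 200 kb the Seh1 shares were 58.8% (32.9 to 81.6) of channel genes and 56.1% of all protein-coding genes. Between 50 and 100 kb, 14 of 22 channel genes were given a Seh1 peak (63.6%, 40.7 to 82.8), against 45.1%, and 13 of 22 held a peak centre (59.1%, 36.4 to 79.3), against 38.4%. Between 20 and 50 kb, 17 of 28 channel genes were given a Seh1 peak (60.7%, 40.6 to 78.5), against 34.3%, and this was the only class whose interval left out the share of all genes. When the peak had to lie inside the gene, 6 of 28 channel genes of that class had one (21.4%, 8.30 to 41.0), against 21.0% of all genes. Below 20 kb, 14 of 44 channel genes were given a Seh1 peak (31.8%, 18.6 to 47.6), against 21.8% of all genes, and 2 of the 44 held a peak centre (4.55%, 0.555 to 15.5), against 5.50%. The share given an IgG peak was 6.82% below 20 kb, against 6.54% of all genes, and 7.14% between 20 and 50 kb, against 10.3%. It was 9.09% between 50 and 100 kb, against 16.2%, and 35.3% (14.2 to 61.7) between 100 and 200 kb, against 22.4%. In every length class the IgG interval of channel genes included the share of all genes.

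Counted per length of gene, the density of Seh1 peaks in channel genes had an interval that included the value of all genes. The spans of the 138 genes cover 17.3 Mb and held 131 Seh1 peak centres, or 7.56 per Mb (6.32 to 8.98), against 6.90 per Mb over all protein-coding genes. They held 29 IgG centres, or 1.67 per Mb (1.12 to 2.40), against 1.90. Genes of 200 kb and over make up 11.9 of the 17.3 Mb, against 420 of 1031 Mb over all genes. Their Seh1 density was 6.70 per Mb (5.32 to 8.34) in channel genes and 5.44 in all genes. Between 100 and 200 kb it was 10.8 (7.11 to 15.7) and 7.80, and between 50 and 100 kb 10.5 (5.97 to 17.0) and 7.80. Between 20 and 50 kb it was 7.70 and 8.10, and below 20 kb 6.62 and 8.12. Each channel interval included the value of all genes of that length. The subfamilies were spread around 7.56 per Mb. The pore-forming calcium channel subunits had 29 Seh1 centres at 12.3 per Mb (8.26 to 17.7), and the pore-forming voltage-gated potassium subunits had 22 at 4.56 per Mb (2.86 to 6.91). Their intervals did not overlap each other. The calcium interval lay above the value of all protein-coding genes, while the potassium interval included it. IgG centres in the same genes came to 1.70 per Mb (0.464 to 4.36) for the calcium subunits and 2.07 (0.994 to 3.81) for the potassium subunits. These subfamilies were picked from 12 after their values were seen, so their intervals are a description. Sodium beta genes (33.0 per Mb) and HCN genes (2.21 per Mb) stood farther out on 2 and 1 Seh1 centres.

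**Figure D2:**
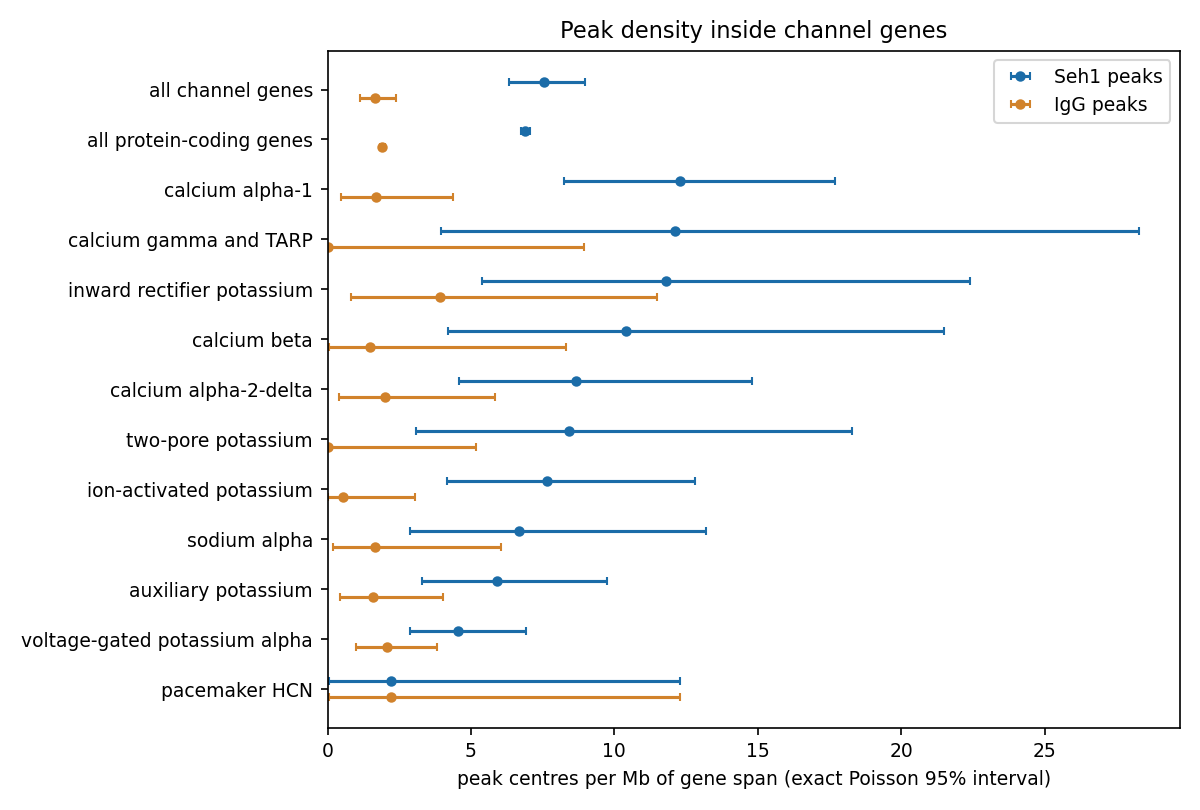
Peak centres per Mb of gene span (linear axis) in the channel genes, in all protein-coding genes and in 11 subfamilies, for Seh1 (blue) and IgG (orange), with 95% exact Poisson intervals as bars. Sodium beta subunits are left out, since they hold 2 Seh1 centres in 0.0606 Mb. Calcium alpha-1 genes stand at 12.3 Seh1 centres per Mb and voltage-gated potassium alpha genes at 4.56.

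The calcium channel alpha-1 genes, each of which encodes a whole voltage-sensing pore, were given 22 Seh1 peaks in 6 of 10 genes and 2 IgG peaks in 2 genes. Of the 22, 21 lay inside the gene. Cacna1b (the N-type channel of presynaptic terminals, chr2:24603860-24763200) was given 7 Seh1 peaks and 1 IgG peak. Its Seh1 peaks lay in introns 3 to 24, at 11.3, 38.2, 70.6, 88.3, 103 and 109 kb from the TSS, and in intergenic DNA 13.3 kb upstream, while its IgG peak lay in intron 10 at 52.6 kb. The 6 intronic Seh1 peaks of Cacna1b carried no repeat at their centres, and the IgG peak was centred in a LINE element. Cacna1d (an L-type channel, chr14:30039941-30491156) was given 5 Seh1 peaks, all in intron 3 of 46 within 69.2 kb of a TSS, and no IgG peak.

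Cacna1d held more Seh1 peak centres than any other channel gene, 9 in 451 kb. The authors' annotation gave the other 4, in introns 8, 29 and 39, to the neighbouring gene Chdh, whose TSS was nearer. Cacna1c, a second L-type channel of 610 kb, was given 4 Seh1 peaks and held 6, and it was given 1 IgG peak and held 3. Cacna1a (the P/Q-type channel) was given 4 Seh1 peaks and no IgG peak, and its widest was 478 bp. Cacna1i, Cacna1s, Cacna1h and Cacna1f were given no peak in either list, although Cacna1i held 1 Seh1 peak in intron 10 that was given to Gm31369.

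Among the auxiliary calcium channel subunits, the alpha-2-delta proteins, which are extracellular and carry the channel to the membrane, were given 8 Seh1 peaks and 1 IgG peak. Cacna2d3 (818 kb) took 6 of those Seh1 peaks, of which 4 lay in intron 2, 1 in intron 4 and 1 was intergenic, 96.1 kb upstream. Inside its span were 8 Seh1 and 2 IgG centres, since the TSS of Lrtm1 lies within the gene. Cacna2d1, at 440 kb a gene of similar kind, was given no Seh1 peak and 1 IgG peak at 173 kb.

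Among the cytoplasmic beta subunits, Cacnb4 was given 3 Seh1 peaks and held 5, and the peak of Cacnb1 was 590 bp wide, wider than 99.0% of all Seh1 peaks, and lay 1.42 kb from the TSS in intron 2 of 11. Cacnb3 had no peak in either list. The gamma subunits, among which are the TARPs that carry AMPA receptors to synapses, were given 13 Seh1 peaks and 0 IgG peaks. Cacng2 (stargazin) took 4, of which 3 lay in its first intron. Cacng3 took 4 as well, of which 2 lay in introns of the neighbouring kinase gene Prkcb, and Cacng5 took 3, of which 1 lay in the 3′ UTR of Prkca.

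**Figure D3:**
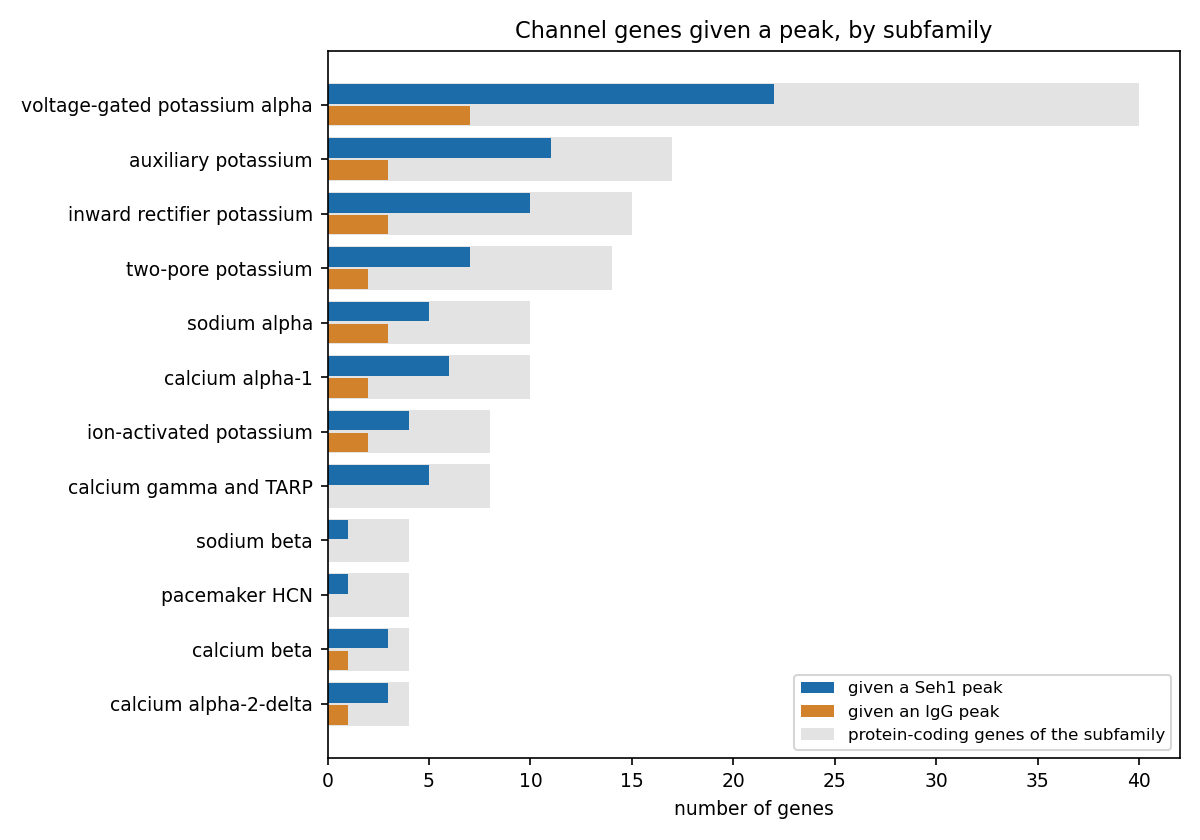
Number of protein-coding channel genes given a Seh1 peak (blue) or an IgG peak (orange) by the authors' annotation, by subfamily, over grey bars for the number of genes in the subfamily. Voltage-gated potassium alpha subunits were the largest group, with 22 of 40 genes given a Seh1 peak and 7 of 40 an IgG peak.

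The voltage-gated potassium alpha subunits, the largest subfamily, were given 38 Seh1 peaks in 22 of 40 genes and 17 IgG peaks in 7 genes. The share of its genes given a peak was 55.0% for Seh1 and 17.5% for IgG, against 56.5% and 17.4% of all channel genes. Both peak counts were the highest of any subfamily. Only 16 of these Seh1 peaks and 3 of the IgG peaks lay inside the gene they were given to. Kcnh1 (Eag1, 321 kb) was the exception in number, with 5 Seh1 peaks inside the gene at 84.8, 161, 249, 270 and 287 kb from its TSS and no IgG peak. The last 3 lay in intron 10 of 10, and one of those was 483 bp wide. Kcnh5, its closest relative, showed the other pattern, with 1 Seh1 peak at 20.6 kb and 4 IgG peaks at 6.96, 48.5, 110 and 389 kb.

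Kcna4, a Shaker-type subunit of A-type currents, was given 2 Seh1 peaks at 676 and 989 kb and 4 IgG peaks at 48.6, 600, 629 and 833 kb, all intergenic. Kcnd2 (Kv4.2, 514 kb) was given 2 Seh1 peaks, 1 in its first intron at 224 kb and 1 at 408 kb upstream, and 4 intergenic IgG peaks between 75.8 and 370 kb upstream. Its span also held 2 IgG centres, both in its first intron, that were given to Tspan12. Kcng1, Kcnv1 and Kcnq5 were given 3 Seh1 peaks each and no IgG peak, and none of these lay inside the gene. The silent subunit genes Kcng1 and Kcnv1 have peaks between 39.3 and 552 kb away, and those of Kcnq5, a subunit of the M-current, lay 213, 322 and 350 kb upstream. The summed gaps to both neighbouring genes were 1996 kb for Kcna4, 2377 kb for Kcnd2 and 2773 kb for Kcnv1. They were 223 kb for Kcng1 and 335 kb for Kcnq5, against a median of 72.9 kb for channel genes.

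Kcng3 was given a single intergenic Seh1 peak of 509 bp, 32.5 kb upstream. Kcns1 was given a Seh1 peak in the last exon (11 of 11) of the kinase gene Stk4. Kcnq1, the cardiac subunit whose locus is imprinted, was given 1 Seh1 peak in intron 1 and held 5. Of its other 4, 3 were given to 4933417O13Rik and 1 to Kcnq1ot1, the long non-coding RNA that runs through the gene. Kcnq1ot1 itself was given 1 Seh1 and 1 IgG peak, both in its single exon, 10.1 kb apart. The 16 genes of this subfamily with no peak given in either list included Kcnc2, Kcng2, Kcns3 and Kcnc1.

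The ion-activated potassium channel genes, whose symbols begin with Kcnma, Kcnn, Kcnt or Kcnu, were given 16 Seh1 peaks in 4 of 8 genes and 3 IgG peaks in 2 genes. Kcnma1 took 8 of these Seh1 peaks. It encodes the pore of the BK channel, which opens with both calcium and voltage. Its 8 Seh1 peaks, the most of any channel gene, all lay inside the gene, 7 in intron 1 of 28 at 6.87, 18.6, 61.7, 73.8, 88.3, 106 and 130 kb from the TSS and 1 in intron 3 at 385 kb. None of the 8 carried a repeat at its centre. The gene (713 kb) was given no IgG peak, and 1 IgG peak in its intron 24 was given to Gm10248.

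Kcnn3 (SK3, a small-conductance channel opened by calcium) was given 4 Seh1 peaks and 1 IgG peak. Of the 4, 2 lay upstream at 4.67 and 13.4 kb and 2 in intron 2, at 46.3 and 54.1 kb, where the farther one was 630 bp wide and wider than 99.3% of all Seh1 peaks. Kcnn2 (SK2) was given 3 Seh1 peaks, all intronic, and 2 IgG peaks. Kcnt2, a sodium-activated channel gene of 368 kb, was given none in either list, as were Kcnt1, Kcnn1 and Kcnn4.

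The inward rectifiers, which pass potassium more easily into the cell than out of it, were given 22 Seh1 peaks in 10 of 15 genes and 7 IgG peaks in 3 genes. Kcnj6 (GIRK2, a subunit gated by G proteins) was given 6 Seh1 peaks, of which 4 lay inside the gene and 1 of those, of 519 bp, at a transcription termination site of transcript NM_001025590. It was given 1 IgG peak, 61.9 kb upstream. Kcnj3 (GIRK1), which pairs with it, was given 4 Seh1 peaks at 16.9, 148, 175 and 341 kb and 5 IgG peaks at 24.1, 66.5, 116, 240 and 485 kb. With 9 peaks in both lists together Kcnj3 had the most of any channel gene, and more of them came from IgG than from Seh1. Its summed gap to both neighbouring genes was 1802 kb, against a median of 72.9 kb for channel genes.

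Kcnj5 was given 3 Seh1 peaks, all intergenic and each centred in an LTR element. Kcnj8, a pore subunit of ATP-sensitive channels in vessels, was given 2, of which 1 lay in its exon 3 of 3. Kcnj11, the pore subunit of the ATP-sensitive channel of beta cells, was given 1 peak of 588 bp in intron 23 of 38 of its neighbour Abcc8, which encodes the sulfonylurea receptor of the same channel. Kcnj1 was given 2 in the transcription factor gene Fli1, 1 of them in exon 9 of 9. Kcnj16 was given 1 Seh1 peak 2.83 kb upstream of a TSS and 1 IgG peak 1.47 kb upstream of another. Their centres were 5636 bp apart. The IgG peak (494 bp) was the widest that IgG had on a channel gene. The 5 genes with no peak were Kcnj12, Kcnj10, Kcnj4, Kcnj13 and Kcnj14, among them Kcnj10 (Kir4.1), the main inward rectifier of astrocytes.

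The two-pore domain channels, which carry leak currents at rest, were given 14 Seh1 peaks in 7 of 14 genes and 3 IgG peaks in 2 genes. Kcnk9 (TASK3) was given 4 Seh1 and 2 IgG peaks, none inside the gene, and 2 of the Seh1 peaks lay in intron 20 of Trappc9. Kcnk1 was given 3 Seh1 peaks, 1 of them in intron 1 at 6.20 kb. Kcnk10 was given none but held 2 Seh1 peaks, in introns 4 and 5, that were given to Gm40893. No peak was given to Kcnk5, Kcnk18, Kcnk6 and Kcnk4 among others.

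Auxiliary potassium channel subunits were given 21 Seh1 peaks in 11 of 17 genes and 5 IgG peaks in 3 genes. Kcnip1, a relative of Kcnip4, was given 4 Seh1 peaks and held 6. The other 2 were those of Kcnmb1, the beta-1 subunit of BK channels, whose gene lies inside that of Kcnip1. One of them, of 495 bp, lay in the last exon of Kcnmb1 (4 of 4) and the other, of 433 bp, in its intron 3, their centres at 7.17 and 6.07 kb from the TSS. Kcnmb2 was given 3 Seh1 peaks and 1 IgG peak, and this IgG peak, of 416 bp, lay in an L1Md_F2 element. Kcnab1, a cytoplasmic beta subunit, was given 2 Seh1 and 3 IgG peaks, all inside the gene. The longest genes without a peak were Kcnip3, Kcnmb3, Kcne1, Kcnab3 and Kcnrg.

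The sodium channel alpha subunits were given 10 Seh1 peaks in 5 of 10 genes and 3 IgG peaks in 3 genes. The cluster of Scn3a, Scn2a, Scn1a, Scn9a and Scn7a (chr2:65457118-66784910, 1328 kb), which contains several sodium channels of brain neurons, held 3 Seh1 and 4 IgG centres. Inside these genes lay 1 Seh1 centre, in Scn3a, and 1 IgG centre each in Scn3a and Scn1a. The other centres of the cluster lay outside these genes.

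Scn10a, a channel of sensory neurons that resists tetrodotoxin, was given 4 Seh1 peaks, of which 3 lay in its own introns and 1 in exon 21 of 27 of Scn11a. In the chromosome 2 cluster Scn3a was given a Seh1 peak in its exon 14 of 27 and an IgG peak of 337 bp in intron 17, with centres 14712 bp apart, and Scn1a an IgG peak in intron 1. Scn2a, Scn8a, Scn9a and Scn4a were given none in either list. Among the sodium beta subunits, cell adhesion-like partners of the alpha subunit, Scn3b was given 2 Seh1 peaks in introns and the other three none. Of the pacemaker channels, Hcn4 was given 1 Seh1 peak, in exon 26 of 29 of Neo1, and Hcn2 and Hcn3 were given none in either list.

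**Figure D4:**
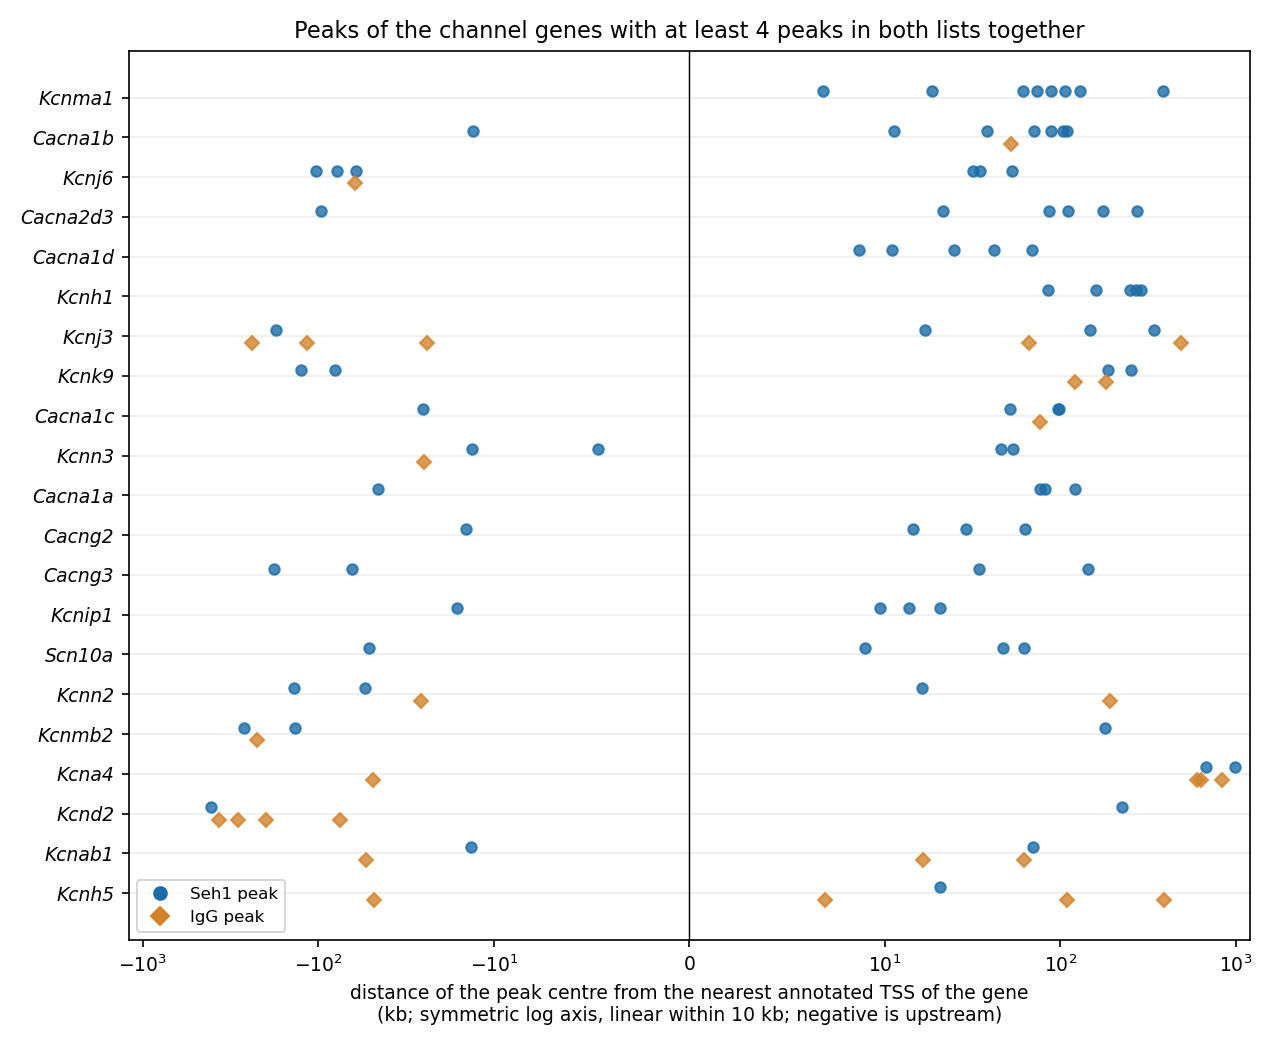
Positions of Seh1 (blue circles) and IgG (orange diamonds) peaks of the 21 channel genes with at least 4 peaks in both lists together, as signed distance in kb from the nearest TSS of the gene, on a symmetric log axis that is linear within 10 kb. Kcnma1, Cacna1d and Kcnh1 show Seh1 peaks downstream of the TSS and no IgG peak, and Kcnj3, Kcna4, Kcnd2 and Kcnh5 show peaks of both lists.

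Seh1 peaks of channel genes lay mostly in introns. Introns held 102 of the 174 (58.6%, 50.9 to 66.0), against 36.8% of all Seh1 peaks, and intergenic DNA held 34.5%, against 54.3%. The IgG peaks of channel genes were divided like the whole IgG list, with 36.4% in introns (22.4 to 52.2), against 33.5%, and 61.4% intergenic, against 62.5%. The centre was inside the protein-coding gene it was given to for 99 of 172 Seh1 peaks of channel genes (57.6%, 49.8 to 65.0), against 36.7% of all such Seh1 peaks, and for 16 of 42 IgG peaks (38.1%, 23.6 to 54.4), against 32.6%. The greater length of channel genes stands beside these shares, and its part in them was not tested. First introns held 34 of the 102 intronic Seh1 peaks (33.3%, 24.3 to 43.4), against 27.1% of all intronic Seh1 peaks.

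The distance from the TSS was large in both lists. The median was 49.8 kb for the Seh1 peaks of channel genes, against 37.8 kb for all Seh1 peaks, and 76.0 kb for their IgG peaks, against 57.4 kb for all IgG peaks. Within 10 kb lay 22 of the 174 Seh1 peaks (12.6%, 8.10 to 18.5), against 18.1% of all Seh1 peaks, and 3 of the 44 IgG peaks (6.82%, 1.43 to 18.7), against 13.4%. Exons held 8 Seh1 peaks (4.60%, 2.01 to 8.86), against 5.37% of all, and no IgG peak of the 44, which allows a share of up to 6.82% (exact upper bound 8.04%). Of those 8 exons, 4 belonged to the gene named, among them Scn3a, Kcnj8 and Kcnmb1, and 4 to a neighbour. In all, 19 Seh1 peaks of channel genes (10.9%) and 2 IgG peaks (4.55%) lay in a transcript of another gene. This was not counted over all peaks, so these shares have no background value.

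The naming by nearest TSS also worked the other way. Inside the spans of channel genes, 34 Seh1 centres in 20 genes and 13 IgG centres in 8 genes were given to a different gene, which for 6 of the Seh1 and 2 of the IgG centres was another channel gene or channel RNA. Of the 131 Seh1 centres inside channel genes, 99 were given to a gene they lay in, against 4654 of 7117 over all protein-coding genes. For IgG these were 16 of 29, against 1318 of 1959. A centre where genes overlap can be in both counts. One Seh1 peak given elsewhere, of 362 bp at chr1:15710778-15711139, lay in the last exon (3 of 3) of Kcnb2, a delayed rectifier gene, and was given to Terf1. Kcnb2 was itself given 2 Seh1 peaks, both intergenic and both in LTR elements.

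No Seh1 peak of a channel gene overlapped an IgG peak by even 1 bp (0 of 174, which allows up to 1.72%, exact upper bound 2.10%), against 60 of all 16113 Seh1 peaks (0.372%). The closest pair lay in intron 2 of Cacnb2, 3.79 kb apart between centres, and 4 Seh1 peaks, at Cacnb2, Kcnj16, Kcnk9 and Kcnab1, had an IgG centre within 10 kb. The median distance from a Seh1 peak of a channel gene to the nearest IgG peak was 274 kb. Channel genes named in both lists were therefore named for separate sites. Overlap was also rare over the whole Seh1 list, at 0.372%, so its absence is not particular to channel genes.

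**Figure D5:**
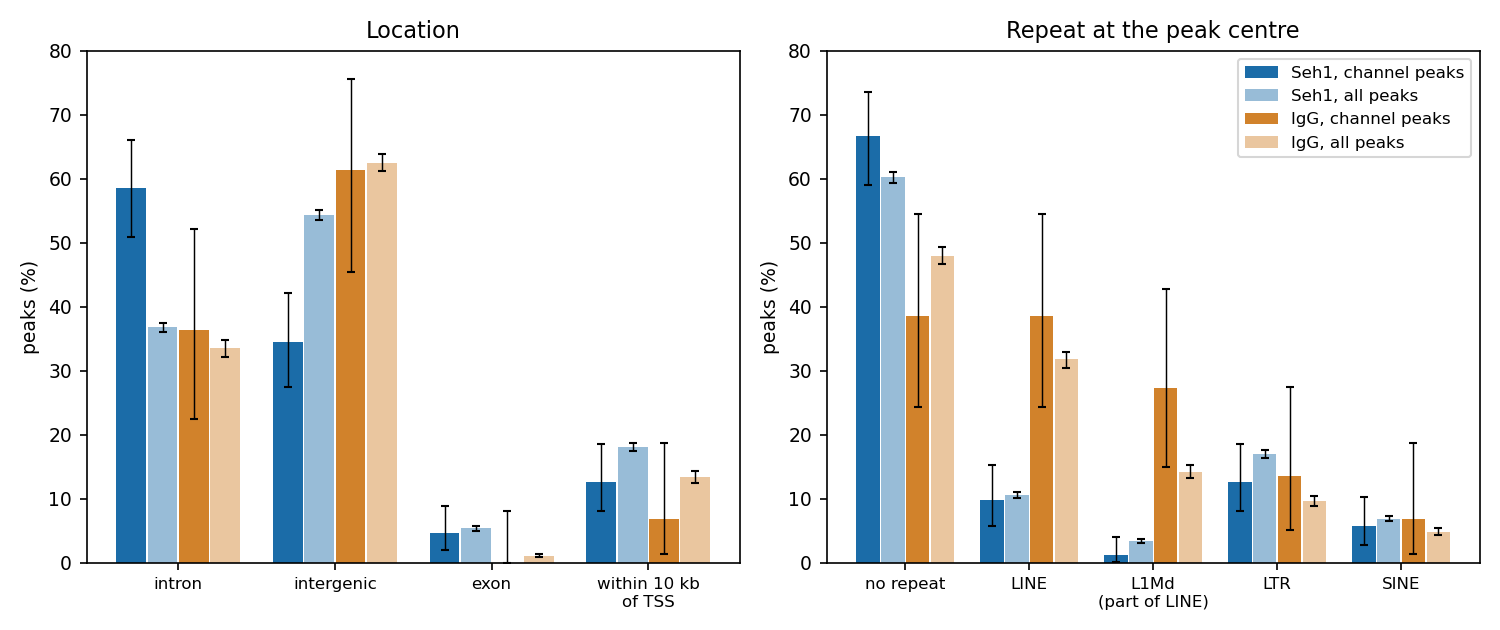
Share of peaks (%) by location (left) and by repeat at the peak centre (right), for the Seh1 and IgG peaks of channel genes (dark bars) and for all peaks of each list (light bars), with 95% exact binomial intervals. Introns hold 58.6% of the Seh1 peaks of channel genes and 36.8% of all Seh1 peaks, and L1Md elements hold 27.3% of the IgG peaks of channel genes and 14.2% of all IgG peaks.

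The lists differed in the repeats under their channel peaks, as the plot of location and repeats shows. The authors' annotation names a repeat for intronic and intergenic peaks only. None was named for 116 of the 174 Seh1 peaks (66.7%, 59.1 to 73.6), against 60.2% of all Seh1 peaks, and for 17 of the 44 IgG peaks (38.6%, 24.4 to 54.5), against 48.0% of all IgG peaks. LINE elements held 9.77% of the Seh1 peaks of channel genes (5.80 to 15.2), against 10.6% of all, and 38.6% of their IgG peaks (24.4 to 54.5), against 31.8%. L1Md elements, the young LINEs of the mouse, held 2 of the 174 Seh1 peaks (1.15%, 0.140 to 4.09), against 3.37% of all, and 12 of the 44 IgG peaks (27.3%, 15.0 to 42.8), against 14.2%. The 12 IgG sites were given to Kcna4, Kcna5, Kcnd2, Kcnh5, Kcnh7, Kcnj3, Kcnk9, Kcnab1, Kcnmb2 and Scn1a. Without peaks that carry a repeat label, 61 channel genes were still given a Seh1 peak (44.2%, 35.8 to 52.9), against 22.0% of all protein-coding genes, and 11 an IgG peak (7.97%, 4.05 to 13.8), against 6.46%.

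Genes outside the symbol rule that encode known partners or relatives of these channels were counted in the same way. Of 44 such genes, with a median length of 65.0 kb, 23 were given a Seh1 peak (52.3%, 36.7 to 67.5), against 31.9% of all protein-coding genes and 45.1% of those between 50 and 100 kb. An IgG peak was given to 10 of the 44 (22.7%, 11.5 to 37.8), against 11.3% and 16.2%. The lengths of the 44 run from 1.28 to 2241 kb, so the class of their median does not stand for them. Of all protein-coding genes, 21.8% were given a Seh1 peak and 6.54% an IgG peak below 20 kb. At 200 kb and over the shares were 70.8% and 45.2%. The part of length in the shares of the 44 was not tested. The 44 genes took 48 Seh1 and 15 IgG peaks in all. Ank3, which encodes ankyrin-G, the anchor of sodium channels at the axon initial segment, was given 8 Seh1 peaks and 0 IgG peaks, as many as Kcnma1. Dpp10 and Dpp6, auxiliary subunits of Kv4 channels, were given 4 and 3 Seh1 peaks and 1 and 0 IgG peaks. Cntnap2, which clusters potassium channels along myelinated axons and is the longest of the 44 at 2241 kb, was given 4 peaks in each list. Unc79, a subunit of the sodium leak channel complex, and Rims2, a presynaptic partner of calcium channels, were each given 4 Seh1 peaks and 1 IgG peak.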

How the data were processed

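Chromatin was fixed with formaldehyde and sonicated, per the labels' protocols. Each deposited list has 1 line per peak with mm10 coordinates, a signed distance in bp to the nearest TSS, an annotation class and a repeat name at the centre, which the authors made with HOMER annotatePeaks.pl, per the file headers. The submitters' processing notes name Bowtie2 and HOMER with no version and list human builds (hg18, hg38), but the IDs of all channel genes matched the mouse table and the headers give mm10, which was used here. Not given in the sources used here were the peak caller, its threshold, duplicate handling and depth. The deposited peak score was 0 in every line, so peaks could be ranked by width alone. Counting was done in Python 3.11.15 with pandas 2.3.3 and scipy 1.17.1, on 49603 genes of the RefSeq table of GRCm38.p6 (after leaving out 394 genes that it lists below 3 Mb, chromosome Y aside). Gene lengths are spans in that table, and the overlap minimum was 1 bp. Intervals were 95% exact binomial (Clopper-Pearson) or exact Poisson and cover counting error only. The counting was tested on simulated lists. Genes were named for a peak within 1 kb of the TSS, a peak in an exon, UTR or termination site, the 10 widest Seh1 or 5 widest IgG peaks, 3 or more Seh1 peaks, the most peaks in both lists, or as the longest of a subfamily without a peak; a few others, such as relatives of these and genes whose peaks were given elsewhere, were chosen after their values were seen. The channel genes, subfamilies and partner list were chosen with earlier results of these data known. Intron and exon numbers are those of the transcript that the authors' annotation names. Some genes that this rule would name are not reported here.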

Additional observations from a re-analysis of the deposited data

How the results depend on the processing

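Of 35 recounts under other settings, 31 gave counts within 1.5 times of those reported or shares within their intervals. Among these, taking only peaks wider than the minimum width left 16 channel genes with an IgG peak, against 24, and put 11.5% of their IgG peaks within 10 kb of the TSS, against 6.82%. Requiring a peak within 10 kb of the TSS left 20 channel genes with a Seh1 peak and 3 with an IgG peak, fewer by construction, since most peaks lie farther away. Leaving out peaks labelled as repeats, an alternative added after seeing the data, left 11 channel genes with an IgG peak. Counting IgG centres within 10 kb in place of an overlap gave 4 Seh1 peaks of channel genes. The number of channel genes given a peak stayed between 53 and 78 for Seh1 under the other settings, which took wider peaks only, peaks within 100 kb, peaks without a repeat label, peaks outside regions dense in IgG peaks or centres inside the gene. No paired analysis was possible because each group has 1 library. Depth is unknown, peaks carry no height, and neighbouring peaks and overlapping genes are not independent. A gene without a peak is not shown to lack Seh1.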
